A study of Mus musculus with 4 samples.

Results

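The adrenalectomized and nerve-ligated mice at ZT10 (ADX+PSL) were compared with the sham-operated and nerve-ligated mice at the same time (sham+PSL). ZT is zeitgeber time, counted in hours from lights on, and ZT10 was taken by the submitters as the time of the daily glucocorticoid peak in mice with adrenal glands. The members are the 2 arrays that the labels give for these conditions, 1 array a side, out of 4 arrays in all, and the other 2 arrays hold the same operations at ZT22. All groups were male ICR mice, an outbred stock, 5 to 6 weeks old, with partial ligation of the right sciatic nerve (PSL), and RNA was taken on day 7 after ligation from slices of the lumbar spinal cord (segments L4 to L5). Sham+PSL mice had a sham adrenalectomy and kept their adrenal glands, and ADX+PSL mice had lost both glands and drank saline. Loss of the adrenal glands takes away mineralocorticoids and adrenaline together with glucocorticoids, and these cannot be told apart here. How many mice stand behind each RNA, and which side of the cord it came from, are not given in the sources used here.

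Glucocorticoids cross the cell membrane and bind the glucocorticoid receptor, which Hsp90 and its partner proteins hold ready in the cytoplasm. The receptor then moves to the nucleus and binds response elements on DNA, typically a pair of inverted half-sites, at genes such as Sgk1, Fkbp5, Tsc22d3 and Per1. The daily surge of the hormone also carries time from the brain's central clock to peripheral tissues, because Per1 and other genes of the clockwork respond to it.

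Each value below is a normalized intensity, in arbitrary units on the linear scale, of the brightest probe of a gene, and a ratio is ADX+PSL over sham+PSL on the log2 scale. A gene was measured where that probe was well above background, by the scanner software's flag, on both ZT10 arrays, and 16196 of the 22226 genes with a symbol on the array were measured. With 1 array a side there is no replicate, no test can be made, and a difference also carries whatever differed from mouse to mouse and slice to slice. The error that the scanner software gives for the spots of a ratio had a median of 0.20 on the log2 scale. Single spots of the 306 probes that were printed 10 times and measured on both arrays varied less, with a median SD of 0.086 for the log2 ratio. Different probes of the same gene differed in their log2 ratio by a median of 0.16, and by more than 1 in 2.4% of 7959 pairs. Of the genes past 2-fold that had several measured probes, all probes were past it in 16 of 42 lower and 3 of 17 higher genes.

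Most genes had nearly the same level on both arrays. The log2 ratio had a median of -0.01 and an SD of 0.35 over all measured genes, and 15159 genes (93.6%) lay within 1.5-fold. At least 2-fold higher in ADX+PSL were 98 genes (0.605% of those measured), and at least 2-fold lower were 238 genes (1.47%). Over single probes, 197 of 26416 were at least 2-fold higher (0.746%) and 358 were lower (1.36%). Thus 70.8% of the genes past 2-fold were lower after adrenalectomy, and the lower side also reached further. At least 4-fold lower were 41 genes against 14 that were at least 4-fold higher, and at least 8-fold lower were 14 genes against 2. The genes past 2-fold were dim: on the brighter of the 2 arrays the higher ones had a median level of 155 and the lower ones of 198, against 791 over all measured genes. The counts rest on how the background is treated, since with mean signals and no background subtraction 36 genes were higher and 82 lower.

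**Figure D1:**
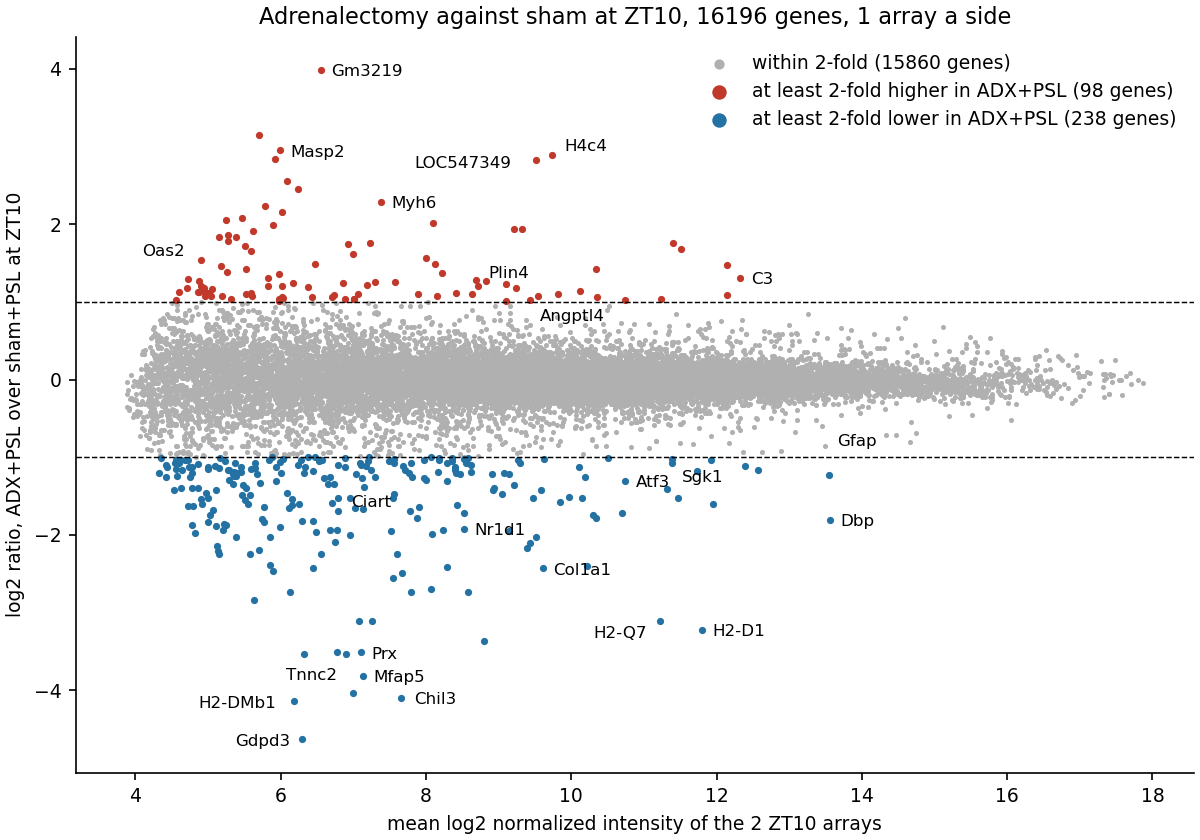
Log2 ratio of ADX+PSL over sham+PSL at ZT10 (vertical axis) against the mean log2 normalized intensity of the 2 ZT10 arrays (horizontal axis), 1 point a gene for 16196 genes. Red points are the 98 genes at least 2-fold higher, blue points the 238 genes at least 2-fold lower, and the dashed lines mark 2-fold. The blue points reach further from 0 than the red ones, and the brightest genes keep close to 0.

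The tissue label was checked first. All 10 lumbar Hox genes of the list were measured, with a median log2 ratio of 0.00 and none past 2-fold. Hoxc10, a gene of the lumbar cord, read 1847 in sham+PSL, 1897 in ADX+PSL at ZT10, and 1552 and 2052 at ZT22. Of 12 genes of the cervical cord and brain, 8 were measured, with a median of 0.15 and none past 2-fold. At ZT22 the medians were 0.29 for the lumbar list and -0.05 for this one, with none past 2-fold in either. Markers of neurons (15 of 16 measured, median -0.04), motor neurons (12 of 12, -0.09), oligodendrocytes (16 of 16, 0.01) and astrocytes (16 of 16, 0.05) held no gene past 2-fold in either direction. Members of lists that are given singly here and below, where they lie within 2-fold, were picked after their values had been seen.

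Genes known to be induced by glucocorticoids went both ways, with 14 ratios above 0 and 16 under 0. All 30 genes of the list were measured, and their median log2 ratio was -0.01, the same as that of all genes. At least 2-fold lower were 3 of them, Anxa1, Hif3a and Sgk1, and at least 2-fold higher were 2, Plin4 and Angptl4. Among all measured genes 1.47% were at least 2-fold lower and 0.605% at least 2-fold higher. Sgk1, a kinase that regulates ion channels and transporters, read 3889 in sham+PSL, 1836 in ADX+PSL at ZT10, and 1748 and 1453 at ZT22. The sham+PSL array at ZT10 was the high one, and the other 3 lay together, so that the log2 ratio was -1.08 at ZT10 and -0.27 at ZT22. This ratio stayed between -1.16 and -1.05 under all 8 alternative treatments of the signals that were run for single genes. Hif3a, a hypoxia-inducible factor subunit, read 348 in sham+PSL and 145 in ADX+PSL at ZT10, and 50.6 and 75.2 at ZT22. Its levels were higher at ZT10 than at ZT22 after both operations, and the difference by operation at ZT10 was -1.26 on the log2 scale. Its second measured probe, at 19.2 and 19.5, gave 0.03. Anxa1, the phospholipid-binding protein annexin A1, read 186 and 65.1 at ZT10 and 274 and 84.7 at ZT22, so that both ADX+PSL arrays lay under both sham+PSL arrays. Anxa1 is also made by meningeal and connective tissue cells, whose markers moved the same way (given further on), and their part in its difference was not tested.

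The promoter of Sgk1 shows the letters that the receptor is known to bind. Of the 6 promoter windows that RefSeq's annotation of GRCm38.p6 gives for Sgk1, the one with the most matches lies at chr10:21993640-21993889 (plus strand), and its 250 bases before the start site are printed here with matches in capitals. The motifs searched were the half-site TGTTCT on both strands and the E-box CACGTG, the site of the clock proteins CLOCK and BMAL1, and their first matches here overlap.
Sgk1: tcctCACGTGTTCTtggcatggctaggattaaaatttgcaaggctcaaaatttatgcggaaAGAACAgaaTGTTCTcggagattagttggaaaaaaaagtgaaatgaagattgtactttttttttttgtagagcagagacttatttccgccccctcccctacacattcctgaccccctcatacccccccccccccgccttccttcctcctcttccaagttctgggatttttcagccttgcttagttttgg
It holds 3 half-sites, 242, 189 and 180 bases before the start site, and 1 E-box 246 bases before it. The half-sites at 189 and 180 bases face each other 3 bases apart, as in a complete response element, and this palindrome occurs in only 3 of all 32851 promoter windows of the table, those of Sgk1, Acnat2 and Gm35041. This longer motif was added after the window had been seen. The half-site alone is common: 19% of all windows and 13.5% of those of measured genes hold it, and so do 22.3% of the 220 windows of genes at least 2-fold lower, 16.7% of the 84 windows of genes at least 2-fold higher and 16.2% of the 37 windows of the glucocorticoid-induced list. These counts and shares take the whole windows, which also hold bases after the start site that are not printed. A match of letters is a description of the sequence and by itself shows no binding. The study reported binding of the glucocorticoid receptor to the Sgk1 promoter by immunoprecipitation of chromatin, with primers that lie at the ends of this printed stretch.

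Other textbook targets of the receptor stayed close to their sham level at ZT10. Fkbp5, a co-chaperone that damps the receptor, read 1515 in sham+PSL and 1398 in ADX+PSL at ZT10, and 1201 and 1083 at ZT22, a log2 ratio of -0.12 at ZT10. Tsc22d3, the anti-inflammatory leucine zipper protein GILZ, read 12089 and 11935 at ZT10 and 10297 and 9929 at ZT22. Per1 read 2977 and 2124 at ZT10 and 2109 and 1601 at ZT22, with log2 ratios of -0.49 and -0.40. In each of these the ADX+PSL array lay under the sham+PSL array at both times, by less than 2-fold. The metallothionein gene Mt1, the brightest of the list, had a log2 ratio of 0.14 on its brighter probe and -1.57 on its other probe, and the mean over its probes was -0.72. Its neighbour Mt2, the mTOR-damping Ddit4 and the glutamine synthetase gene Glul had log2 ratios at ZT10 of -0.30, 0.00 and 0.26. At ZT22 Mt2 was past 2-fold lower, with 55142 in sham+PSL and 23919 in ADX+PSL (-1.20), and Mt1 was at -0.54. Plin4 and Angptl4, lipid-handling genes that the hormone induces in fat, were higher without the adrenal glands. Plin4 read 277 in sham+PSL and 637 in ADX+PSL at ZT10, and 89.3 and 81 at ZT22. Angptl4 read 483 and 980 at ZT10 and 1189 and 715 at ZT22, so that its direction turned between the times. Under alternative treatments of the probes or the background, Hif3a (-0.62), Anxa1 (-0.88) and Angptl4 (0.88) came within 2-fold.

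Of 16 genes for corticosteroid receptors, chaperones and local steroid enzymes, 14 were measured, none of these was past 2-fold, and the median was 0.04. Akr1c14, a steroid-reducing enzyme, was well above background in sham+PSL only at ZT10, at least 3.62-fold over its value in ADX+PSL or the lowest value well above background there, whichever is higher. Nr3c1, the glucocorticoid receptor, read 6282 in sham+PSL and 6677 in ADX+PSL at ZT10, and 7909 and 6677 at ZT22. Nr3c2, the mineralocorticoid receptor, was the lowest of the 14 measured genes at -0.51, with levels of 130 and 90.9 at ZT10 and 124 and 103 at ZT22. Among the 18 genes of the SGK pathway Sgk1 alone was past 2-fold, and its relatives Sgk2 and Sgk3 were at -0.05 and 0.01. The bright SGK substrate genes Ndrg2 and Ndrg1 were at -0.07 and 0.17. Of 16 sodium pump and sodium channel genes, which the mineralocorticoid aldosterone governs in kidney, 14 were measured with a median of 0.00 and none past 2-fold.

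The clock genes held 3 of the lower genes. All 21 genes of the clock list were measured, 3 were at least 2-fold lower in ADX+PSL, none was at least 2-fold higher, and the median was -0.10. Dbp, a transcription factor that is driven by E-boxes and serves as an output of the clock, read 22527 in sham+PSL and 6433 in ADX+PSL at ZT10, and 16046 and 13263 at ZT22. Its other probe read 18103 and 4560 at ZT10, and the 2 probes gave log2 ratios of -1.81 and -1.99. Nr1d1, the repressor REV-ERB alpha, read 715 and 189 at ZT10 and 352 and 319 at ZT22, a log2 ratio of -1.92. Ciart, a repressor of the clock's activators, read 199 and 61.7 at ZT10 and 133 and 85.4 at ZT22, a ratio of -1.69. In all 3 genes the ADX+PSL array at ZT10 was the lowest of the 4 and the sham+PSL array at ZT10 the highest. The order of the times also turned with the operation: ZT10 over ZT22 came to 0.49 with the adrenal glands and -1.04 without them for Dbp, 1.02 and -0.75 for Nr1d1, and 0.58 and -0.47 for Ciart, on the log2 scale. All 3 kept their direction under all 8 alternatives, and Ciart, the dimmest, came within 2-fold (-0.94) with no background subtraction.

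Of the 21 clock genes, 7 had ratios above 0 and 14 under 0. Per2, Bhlhe41 and Bhlhe40 were among those under 0, at -0.37, -0.33 and -0.28. Some partner genes of the repressors Nr1d1 and Ciart were above 0, though within 2-fold. Arntl, which encodes BMAL1 and is repressed by REV-ERB proteins, read 529 in sham+PSL and 838 in ADX+PSL at ZT10 and 508 and 662 at ZT22, a log2 ratio of 0.67. Npas2, a relative of Clock, was dim at 19.2 and 32.7, a ratio of 0.77 with a spot error of 0.34. Clock itself was at 0.24 and Nfil3, another gene that REV-ERB proteins repress, at 0.38. Nr1d2, Tef and Hlf, close relatives of Nr1d1 and Dbp, were at -0.10, -0.09 and -0.18, so that the differences were not shared by the whole of either family. The probe used for Nr1d2 is placed on chromosome 19 of mm9, and whether it reads Nr1d2 was not tested. The other probe assigned to Nr1d2 gave -0.22. What the phase of single mice contributed was not tested.

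The promoters of the 3 genes are shown because their levels moved together. E-boxes CACGTG are in capitals, and each printed stretch is the part of a promoter window that holds the 250 bases before the start site in GRCm38.p6. The stretches are chr3:95882229-95882478 (minus strand) for Ciart, chr7:45704997-45705246 (plus strand) for Dbp and chr11:98775378-98775627 (minus strand) for Nr1d1.
Ciart: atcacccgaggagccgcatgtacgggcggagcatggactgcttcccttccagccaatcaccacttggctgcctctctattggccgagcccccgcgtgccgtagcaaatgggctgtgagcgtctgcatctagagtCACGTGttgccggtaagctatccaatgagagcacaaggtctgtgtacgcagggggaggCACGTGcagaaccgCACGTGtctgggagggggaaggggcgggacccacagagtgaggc
Dbp: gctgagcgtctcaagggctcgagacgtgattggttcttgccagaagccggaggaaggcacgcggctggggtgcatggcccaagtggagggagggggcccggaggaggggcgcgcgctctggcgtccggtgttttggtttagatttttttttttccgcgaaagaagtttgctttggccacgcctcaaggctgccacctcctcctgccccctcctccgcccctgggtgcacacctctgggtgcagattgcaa
Nr1d1: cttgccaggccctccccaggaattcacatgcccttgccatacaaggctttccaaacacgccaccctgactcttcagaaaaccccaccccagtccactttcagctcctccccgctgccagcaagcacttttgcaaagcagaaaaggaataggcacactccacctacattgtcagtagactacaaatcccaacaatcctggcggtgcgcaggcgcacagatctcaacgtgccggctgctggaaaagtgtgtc
Ciart has 3 E-boxes, 116, 58 and 44 bases before its start site. Dbp and Nr1d1 have no E-box in the printed stretch, and no half-site TGTTCT occurs in any of the 3 stretches. Among the 18 clock genes with a promoter in the table, 5 have an E-box in a window (27.8%), against 11% of the measured genes and 8.09% of the 27025 genes of the table. Among the windows of genes at least 2-fold lower, 9.09% hold an E-box, against 7.15% of all windows and 9.27% of those of the genes measured. These shares take the whole windows, which also hold bases after the start site that are not printed.

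**Figure D2:**
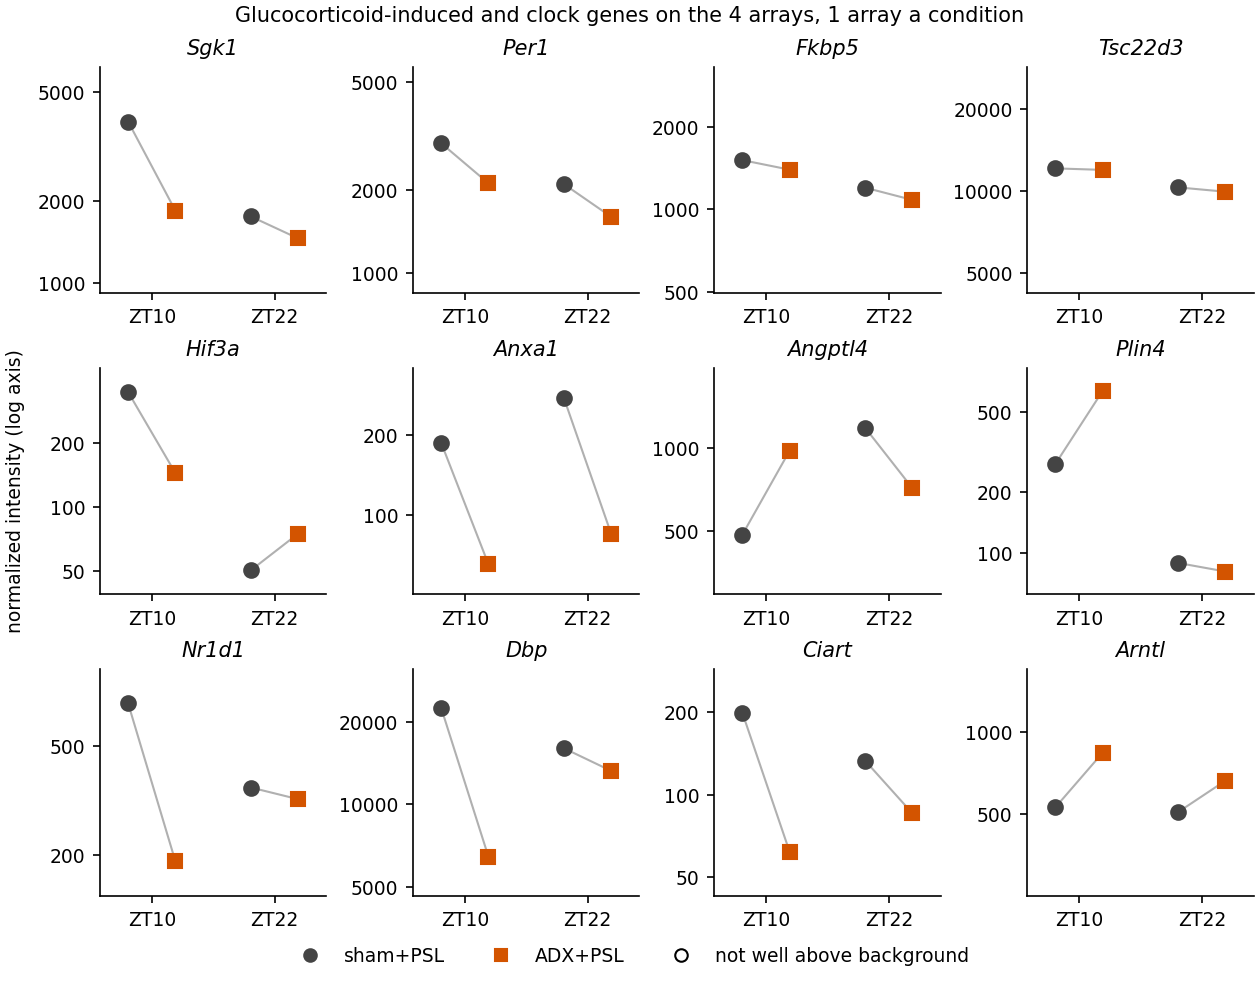
Normalized intensity (log axis) of 12 glucocorticoid-induced and clock genes on the 4 arrays, 1 array a condition, with circles for sham+PSL and squares for ADX+PSL at ZT10 and ZT22. Sgk1 was highest in sham+PSL at ZT10 (3889), Fkbp5 and Tsc22d3 were close to level, and Nr1d1, Dbp and Ciart were lowest in ADX+PSL at ZT10.

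Of all the lists, that of fibroblasts held the most lower genes. All 24 markers of meningeal fibroblasts were measured and 17 were at least 2-fold lower in ADX+PSL, with a median of -1.56 against -0.01 over all genes. Col1a1, a chain of the main fibrous collagen, read 1809 in sham+PSL and 336 in ADX+PSL at ZT10, and 1574 and 318 at ZT22. Mfap5, a protein of elastic microfibrils, read 527 and 37.6 at ZT10 and 261 and 28.4 at ZT22. Ogn, a small leucine-rich proteoglycan, read 448 and 51.9 at ZT10 and 471 and 44.1 at ZT22. For each of them both sham+PSL arrays lay above both ADX+PSL arrays. Of this list, Mfap4, Mfap5 and Pcolce are among the study's candidates, chosen on these arrays partly for a lower level in ADX+PSL. Their direction is thus no independent evidence. Slc13a4, a sulfate transporter of the leptomeninges, read 399 and 46.1 at ZT10 and 1633 and 28.5 at ZT22. Of the 23 genes of the list measured at ZT22, on arrays that the ZT10 comparison does not use, 18 were at least 2-fold lower there, 14 of them at both times. The brightest member, Ptgds, the prostaglandin D synthase of meninges and oligodendrocytes, did not share this at ZT10, with 75819 and 75420. The summed level of the list, which Ptgds dominates, came to 102851 for sham+PSL and 83948 for ADX+PSL at ZT10 and 131794 and 66797 at ZT22. In bulk RNA, fewer cells of a type and less RNA per cell cannot be told apart, and how much of the meninges each slice kept was not tested.

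Of 21 microglia and macrophage markers 20 were measured, 17 of them had a ratio under 0, and the median was -0.30. At least 2-fold lower were 2, Mrc1 and Lyve1, which mark perivascular and meningeal macrophages. Mrc1, the mannose receptor, read 177 in sham+PSL and 45.5 in ADX+PSL at ZT10 and 113 and 59.2 at ZT22. Lyve1 read 71.2 and 27.8 at ZT10, and its ratio came to -0.49 under an alternative. The markers of microglia proper were within 2-fold: Csf1r was at -0.21, Tmem119 at -0.25, Cx3cr1 at -0.03 and P2ry12 at 0.05. The summed level of the list was 138796 and 152538 at ZT10 and 182671 and 163650 at ZT22, with Itgam as the brightest gene. The higher sum at ZT10 came mainly from Siglech, with 28216 and 45024, while another of its probes gave -0.34. Cd68 shows how probes can differ, since its brighter probe gave -0.31 and a dimmer one -1.80.

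Of the markers of nerve root, Prx, the periaxin of myelinating Schwann cells, was much lower in ADX+PSL, with 466 against 40.9 at ZT10 and 247 against 36.3 at ZT22. The other 7 measured genes of this list were within 2-fold, and the list's median was -0.28. Its summed level was 67966 and 78218 at ZT10 and 73966 and 55735 at ZT22, most of it from Mal, which oligodendrocytes also make.

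Muscle genes set the sham+PSL array at ZT10 apart from the other 3. Of 22 markers of skeletal muscle 16 were measured at ZT10 and 7 were at least 2-fold lower in ADX+PSL, with a median of -0.80. Tnnc2, the fast-fibre troponin C, read 516 in sham+PSL and 31.5 in ADX+PSL at ZT10, and 29.8 and 40.8 at ZT22. Myl1, a myosin light chain, read 405 and 35 at ZT10 and 27.2 and 32.5 at ZT22. Myh8, the perinatal myosin heavy chain, read 990 and 148 at ZT10 and 117 and 91.1 at ZT22. Myh4, the myosin of the fastest fibres, was well above background on the sham+PSL array at ZT10 only, with 811 there and at least 63.2-fold over the floor of the ADX+PSL array. Such a floor is the higher of the probe's own value and the lowest value of any probe well above background on the dimmer array. Tnnc2, Myl1 and Myh4 are among the study's candidates, chosen on these arrays partly for a higher sham+PSL level at ZT10 than at ZT22. Their pattern is thus no independent evidence. At ZT22 the muscle list had a median of -0.07. Its summed level came to 26126 for sham+PSL and 22442 for ADX+PSL at ZT10 and 19312 and 23103 at ZT22. Most of it was from Pvalb, which neurons also make. At ZT10 Tnnt3 and Ckm were well above background in sham+PSL only, at least 16.6-fold and 1.89-fold over the floor. Myh1, Myh2 and Mylpf were not well above background on both ZT10 arrays. A gene of heart muscle went the other way: Myh6, the cardiac alpha myosin heavy chain, read 75.2 in sham+PSL, 368 in ADX+PSL at ZT10, and 54.5 and 45.3 at ZT22. The troponin gene Tnnt2, also of heart, was well above background in ADX+PSL at ZT10 only, with 179 there and at least 12-fold over the floor. Whether muscle next to the cord was taken with a slice was not tested.

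Genes of red blood cells were within 2-fold at ZT10 and not at ZT22. All 9 measured members had ratios under 0 at ZT10, with a median of -0.51, and 6 of 9 were at least 2-fold higher in ADX+PSL at ZT22, with a median of 2.38. The alpha globin gene Hba-a2, the brightest of them, read 81120 in sham+PSL and 56627 in ADX+PSL at ZT10 and 12239 and 47305 at ZT22. The summed level of the list was 148830 and 107091 at ZT10 and 29396 and 101476 at ZT22. The low array was thus sham+PSL at ZT22, and the ZT10 pair differed far less in blood than the ZT22 pair did.

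The histocompatibility genes held some of the largest differences at ZT10, and several of them turned round at ZT22. Of 21 genes of this list 19 were measured, 8 were at least 2-fold lower in ADX+PSL, none was at least 2-fold higher, and the median was -0.43. The summed level of the list came to 41317 for sham+PSL and 20212 for ADX+PSL at ZT10 and 27046 and 25467 at ZT22. H2-D1, a class I antigen-presenting molecule, read 10881 in sham+PSL and 1166 in ADX+PSL at ZT10, and 953 and 4232 at ZT22. H2-Q7, a class I gene of a neighbouring part of the locus, read 7024 and 816 at ZT10 and 732 and 2811 at ZT22. H2-DMb1, which helps to load peptides on class II molecules, read 304 and 17.3 at ZT10 and 23.6 and 185 at ZT22. In these 3 genes sham+PSL was high at ZT10 and ADX+PSL was high at ZT22. Gdpd3, a lysophospholipase D that lies outside the locus, had the same pattern with 390 and 15.8 at ZT10 and 26.9 and 669 at ZT22. Its fall at ZT10 was the largest among genes measured on both ZT10 arrays (-4.63, or -2.36 under a background alternative). The rank was not kept there, since H2-D1 stayed at -3.13 or lower under every alternative. B2m, the common partner chain of class I molecules, was nearly level at ZT10, with 7211 and 6797. H2-K1 was at -0.43, and at -0.98 on its other probe. The class I gene LOC547349 was low in sham+PSL at ZT10 alone on its brighter probe, with 273 and 1944 at ZT10 and 2217 and 1241 at ZT22, while its dimmer probe gave -0.27. Of the class II genes, H2-Ab1 read 664 and 202 at ZT10 and 661 and 391 at ZT22. H2-Eb1 read 817 and 356 at ZT10 and 813 and 251 at ZT22. Cd74, the chaperone of class II molecules, read 605 and 197 at ZT10 and 457 and 218 at ZT22. All 3 were thus lower in ADX+PSL at both times. H2-Aa was well above background on the sham+PSL array only at ZT10, with 116 and 4.2 there and 23.5 and 18.6 at ZT22. It is among the study's candidates, chosen on these arrays partly for a lower level in ADX+PSL. The class II pathway genes H2-DMa, H2-Oa and H2-Ob were at -0.22, -0.30 and -0.07. In an outbred stock the mice can carry different alleles at this locus, whose class I sequences vary, and whether the 60-base probes bind them alike was not tested.

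Place on the chromosome was not used to choose these genes, and some of the lower genes lay close together. On chromosome 17 of mm9, between 34297109 and 36997790, 9 of the 103 measured genes were at least 2-fold lower, 8 of them H2 genes. On the X chromosome the neighbours Xlr4a, Xlr3b and Xlr4b, of a family of lymphocyte-regulated genes, were 3 of 4 measured genes between 70319816 and 70467477. They are all of the 10 listed genes of the family that were measured, with a median of -3.51. Xlr4b read 369 in sham+PSL and 32.4 in ADX+PSL at ZT10, and 86.5 and 33.5 at ZT22. The probes of such near-identical copies can bind each other's RNA, so the members cannot be told apart. Xlr3b and Xlr4b are among the study's candidates, chosen on these arrays partly for a lower level in ADX+PSL. Their direction is thus no independent evidence. At the start of chromosome 14, between 3076832 and 5162044, 5 of 9 measured genes were lower, most of them unnamed gene models. On chromosome 3, between 92240731 and 93275828, the epidermal genes Sprr1b, Lce1c, Lce1g, Lce1i and Tchhl1 were 5 of 11. These clusters are runs of 3 or more genes past 2-fold in the same direction, each within 1000000 bases of the next. Their ends are such genes by construction, which raises the share within them, and their number was not compared with chance. Further lower runs, and a run of higher genes (Syce1, Odf3 and Lmntd2 on chromosome 7), met the same rule and are not described.

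**Figure D3:**
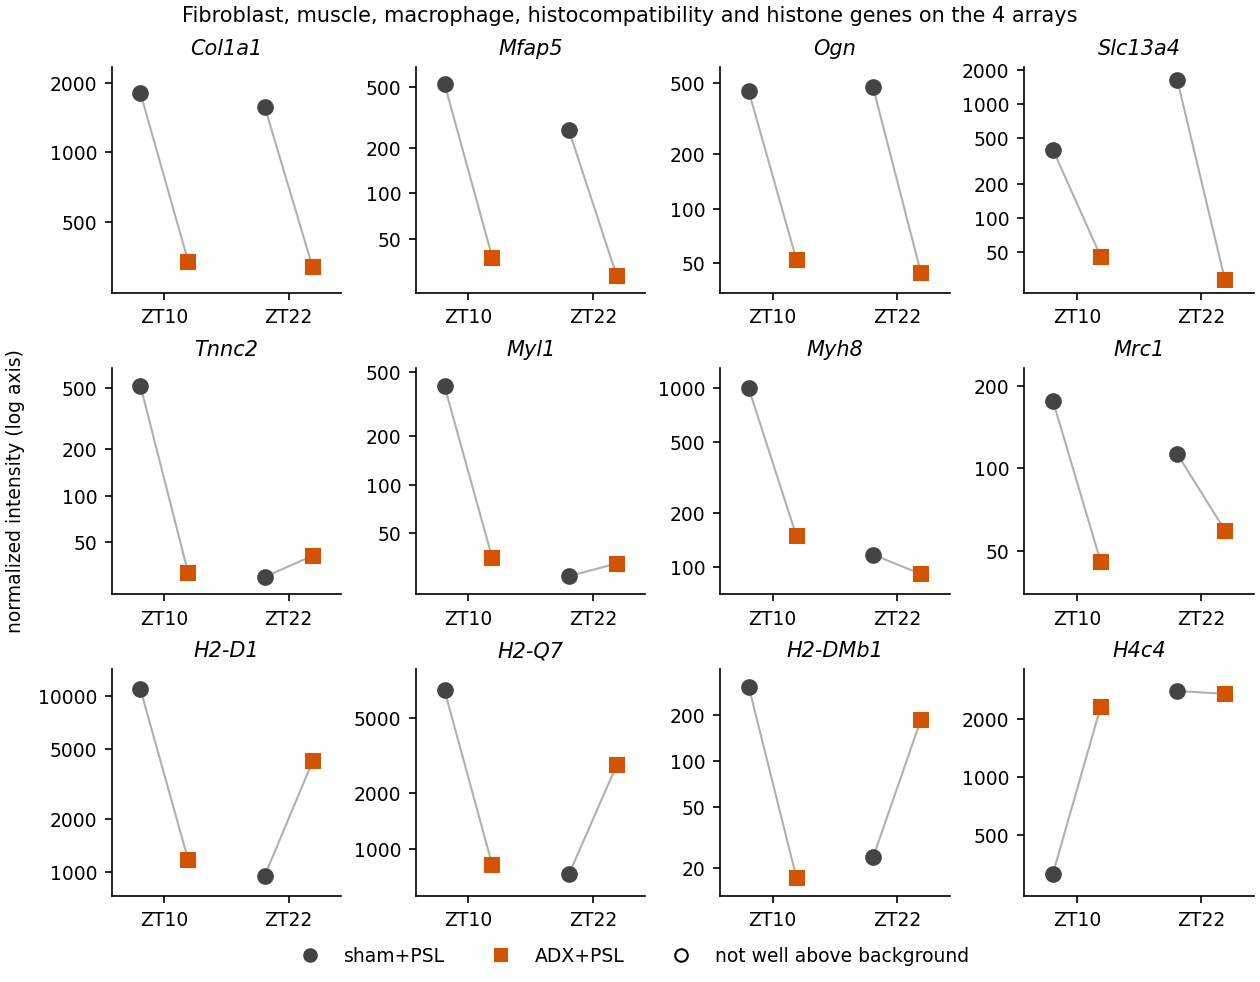
Normalized intensity (log axis) of 12 genes on the 4 arrays, with circles for sham+PSL and squares for ADX+PSL at ZT10 and ZT22. The fibroblast genes Col1a1, Mfap5, Ogn and Slc13a4 were low on both ADX+PSL arrays, the muscle genes Tnnc2, Myl1 and Myh8 were high in sham+PSL at ZT10 only, H2-D1, H2-Q7 and H2-DMb1 were high in sham+PSL at ZT10 and again in ADX+PSL at ZT22, and H4c4 was low in sham+PSL at ZT10 only.

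Among the genes higher in ADX+PSL, a set of histone genes was low on the sham+PSL array at ZT10 alone. H4c4 read 312 in sham+PSL and 2316 in ADX+PSL at ZT10, and 2804 and 2708 at ZT22. Of 9 measured genes for histone H4, 5 were at least 2-fold higher, H4c4, H4f16, H4c14, H4c11 and H4c12, and the other 4 lay between -0.03 and 0.69. H4c12 read 1630 and 5218 at ZT10 and 6191 and 6227 at ZT22, and at ZT22 the median ratio of the 9 genes was -0.03. These genes encode the same protein in nearly the same letters, so that their probes cannot be taken as separate measurements. The H4 genes other than H4c4 were picked after their values were seen.

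The largest rise among genes measured on both ZT10 arrays was that of Gm3219, a gene model on chromosome 14, with 23.6 in sham+PSL and 371 in ADX+PSL at ZT10 and 23.5 and 265 at ZT22. Both ADX+PSL arrays were high and both sham+PSL arrays near the dim end, a log2 ratio of 3.98 at ZT10. Without background subtraction it was 2.18, under the lowest value of H4c4 (2.55), so the rank was not kept. In the same setting Masp2 came to 1.43, and 1700113H08Rik (0.83) came within 2-fold, as Cyp2j7 (0.99) did with normexp, a model-based background correction. Masp2, a serine protease of the lectin pathway of complement, read 22.8 and 176 at ZT10 and 130 and 410 at ZT22. Fggy, a carbohydrate kinase, was dim on both ZT10 arrays and bright on both ZT22 arrays, with 28 and 164 against 1111 and 1333 on its brightest probe, and its 4 probes gave ratios between 0.78 and 2.55 at ZT10. Odf3, a gene of sperm tails, read 25.5 and 120 at ZT10 and 46.1 and 47.7 at ZT22. The remaining genes among the 12 largest rises, 7530428D23Rik, Gm6277, Gm4862, Cyp2j7 and 1700113H08Rik, ran from 17.5 to 32.3 in sham+PSL, against 90.7 to 176 in ADX+PSL at ZT10.

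Genes above background on 1 array only add bounds at the dim end. Over all probes of a gene, 560 genes were well above background in ADX+PSL only and 362 in sham+PSL only, at median levels of 18.9 and 22.9. A bound of at least 2-fold was reached by 93 of the first and 145 of the second. The largest bound toward ADX+PSL was that of Ccr6, a chemokine receptor, with 5.23 in sham+PSL and 524 in ADX+PSL at ZT10 and 654 and 1021 at ZT22, at least 35.2-fold. Only the sham+PSL array at ZT10 lacked it. Toward sham+PSL, 1500004A13Rik read 770 and 4.47 at ZT10 and 654 and 4.48 at ZT22, at least 60-fold, and 5830417I10Rik read 243 and 3.67 and then 212 and 4.02, at least 18.9-fold. Both were well above background on the sham+PSL arrays and on neither ADX+PSL array.

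The inflammatory and injury lists gave single genes past 2-fold and differed in sign. Ratios were under 0 in 9 of 15 complement, 11 of 17 cytokine and 12 of 15 nerve injury genes. In the interferon-stimulated list 6 of 20 were under 0. Of 15 measured complement genes 1 was at least 2-fold higher in ADX+PSL and 2 were lower, with a median of -0.46. C3, the central protein of the cascade, read 3267 in sham+PSL and 8079 in ADX+PSL at ZT10 and 2828 and 2109 at ZT22, and its 2 probes gave similar ratios, from 1.23 to 1.31. Serping1, the C1 inhibitor, which fibroblasts make and which stands on the fibroblast list too, read 1469 and 363 at ZT10 and 1033 and 481 at ZT22. C1s1 was dim and at -1.53. Of 20 interferon-stimulated genes 1 was past 2-fold, Oas2, at 17.4 and 50.9, and the median was 0.18 at ZT10 and -0.54 at ZT22. Of 26 cytokine and chemokine genes 17 were measured, 1 was higher and 1 lower past 2-fold, and the median was -0.31. Ccl9 read 149 and 443 at ZT10 and 1178 and 208 at ZT22, and Ccl12 read 302 and 140 at ZT10 and 657 and 214 at ZT22. Of these immune genes, Oas2 (0.44), C1s1 (-0.46) and Ccl12 (-0.85) came within 2-fold when the background was treated otherwise. Cxcl13, a chemokine for B cells, was well above background in sham+PSL only at ZT10, with a bound of at least 3.91-fold, and Il1b, Il6 and Tnf were not well above background on both ZT10 arrays.

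Atf3, a transcription factor induced by axon injury, was the single member of the nerve injury list past 2-fold (15 of 16 measured, median -0.14). It read 2688 in sham+PSL and 1093 in ADX+PSL at ZT10, and 2226 and 1982 at ZT22, so that the ADX+PSL array at ZT10 was the low one. Sprr1a, another injury-induced gene, read 6391 and 4077 at ZT10 and 8953 and 8288 at ZT22, with both ZT10 arrays under both ZT22 arrays. Gfap, the filament protein of reactive astrocytes, read 15516 and 8565 at ZT10 and 17308 and 18028 at ZT22 on its brightest probe, a log2 ratio of -0.86, and its other 2 probes gave -0.66 and 0.10. The neuropeptide Gal, which injured neurons make, was at 0.08 and Gap43, a growth cone protein, at -0.11.

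Genes of ATP release and its receptors were nearly level. Of 26 such genes 25 were measured, 1 was at least 2-fold lower, and the median was -0.09. P2rx7, an ATP-gated channel of microglia, read 464 in sham+PSL and 230 in ADX+PSL at ZT10 and 301 and 563 at ZT22, and its log2 ratio of -1.01 lay at the limit and came to -0.66 as the mean over its measured probes. Panx1, a hemichannel that releases ATP, read 3775 and 3536 at ZT10 and 3969 and 3843 at ZT22. P2ry6, a receptor for UDP, read 457 and 328 at ZT10 and 689 and 378 at ZT22. The ATP-gated channel P2rx4, the ADP receptor P2ry12 and Orai1, the pore of store-operated calcium entry, were at -0.05, 0.05 and -0.08. The log2 ratios of these 5 genes lay between -0.48 and 0.05, under the 2-fold limit, and Irf8, a regulator of reactive microglia, was at -0.30.

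Neither the dorsal horn peptides (23 of 24 measured, median 0.10), the immediate early genes (17 of 20, 0.04), the heat and cold shock genes (17 of 18, 0.13) nor the genes of cholesterol and fatty acid synthesis (20 of 20, 0.01) held a measured gene past 2-fold. Egr2, an immediate early gene, was well above background in sham+PSL only at ZT10, with a bound of at least 2.43-fold. The cold-induced Cirbp and Rbm3 stood at the low end of the shock list at -0.61 and -0.49, opposite in sign to the heat shock genes Hspa1a and Hspa5 at 0.53 and 0.48. Cirbp read 7245 in sham+PSL and 4731 in ADX+PSL at ZT10 and 8661 and 6137 at ZT22. Of 16 endothelial and mural genes 1 was past 2-fold, the smooth muscle actin gene Acta2 at -1.08, and the median was -0.10. Of 12 ependymal and cilia genes 10 had ratios above 0, with a median of 0.36, while Vtn, a secreted glycoprotein of that list, was at -1.02. Acta2 (-0.87) and Vtn (-0.98) came within 2-fold under an alternative.

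**Figure D4:**
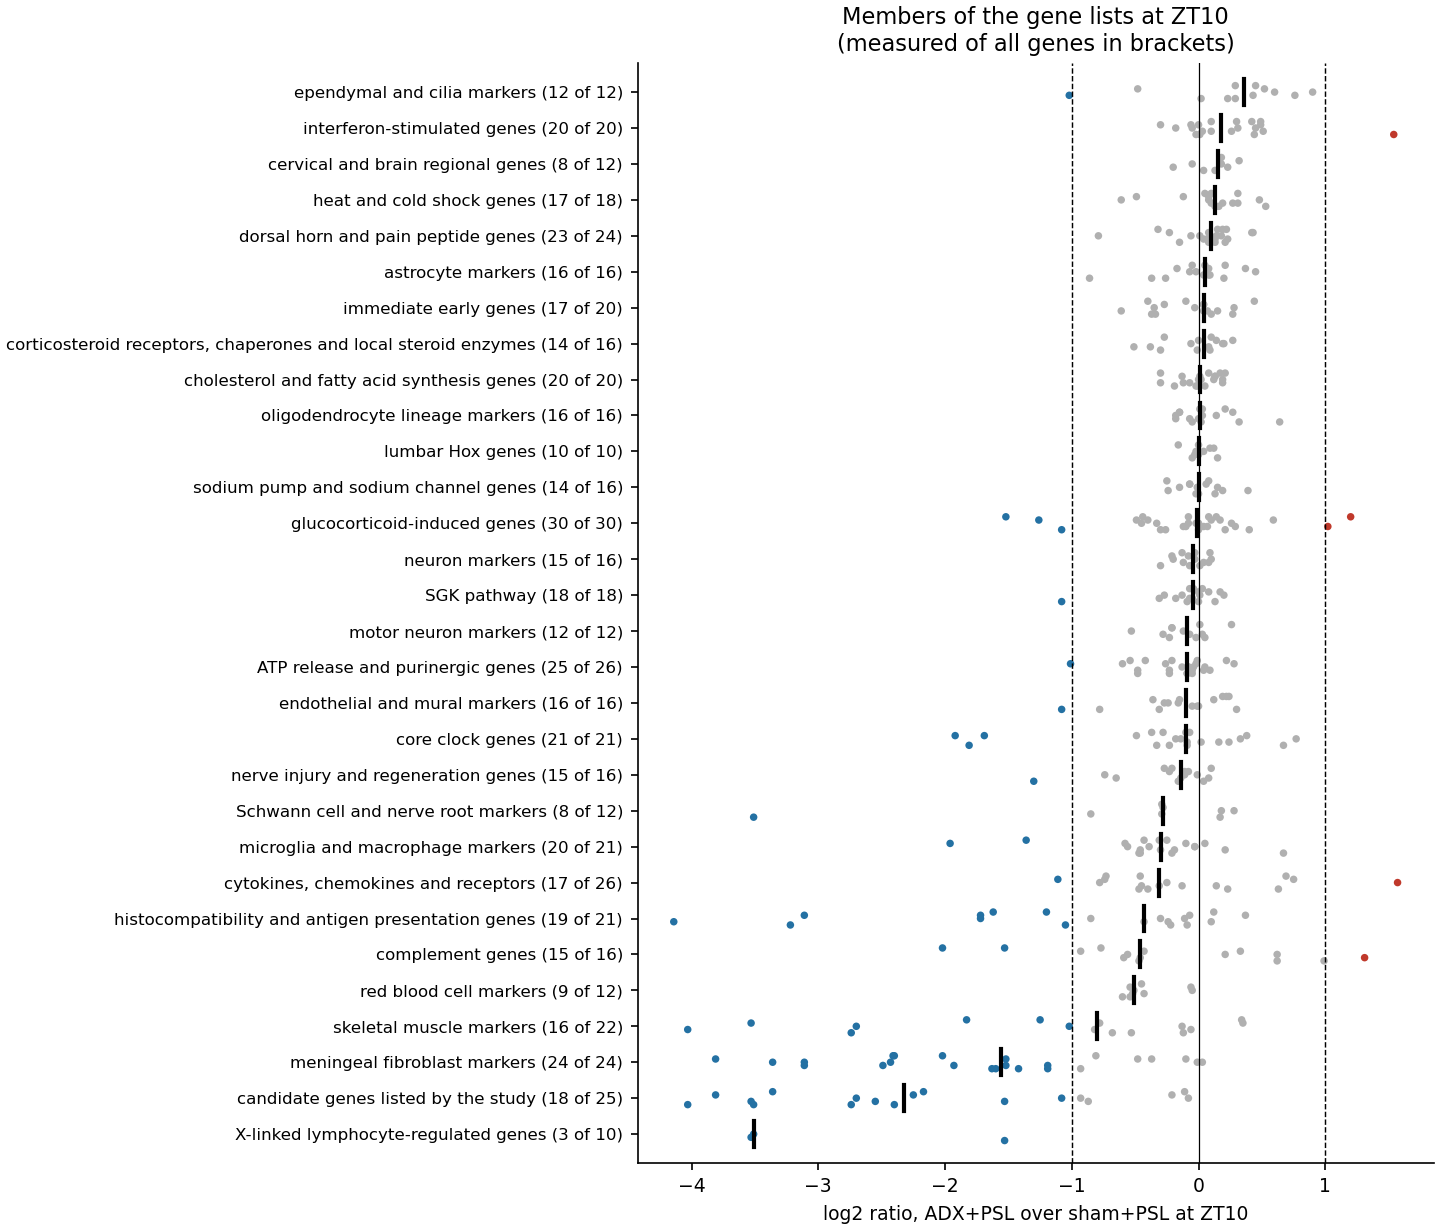
Log2 ratio of ADX+PSL over sham+PSL at ZT10 (horizontal axis) for the measured members of 30 gene lists, 1 point a gene, with the median as a black bar and 2-fold as dashed lines. Blue points are at least 2-fold lower and red points at least 2-fold higher. Most medians lie near 0, and the furthest are those of the Xlr family (-3.51), the study's candidates (-2.32) and the fibroblast list (-1.56).

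The 25 candidate genes that the study lists were chosen on these same 4 arrays, partly for a lower level in ADX+PSL, so their direction is no independent evidence. All 18 that were measured had ratios under 0, 13 of them past 2-fold, with a median of -2.32, and at ZT22 the median was -0.43 with 4 past 2-fold. The count rests on the brightest probe. Exoc4, Cblb and Ajap1 were within 2-fold on it, and their other probes gave -2.54, -2.11 and -1.02. Dcxr was at -2.17 on it and at 0.81 on its other probe. Of the candidates not measured, Myh4, Xlr5a, Xlr5b, Xlr5c, H2-Aa and Vmn2r81 were well above background at ZT10 in sham+PSL only. Over all the lists, 54 of the 238 lower genes and 5 of the 98 higher genes belong to at least 1 list.

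The ZT22 pair gives the same contrast on separate arrays, though from the other end of the day. Of 15537 genes measured on all 4 arrays, 86 were at least 2-fold higher in ADX+PSL at ZT22 (0.554%) and 180 were lower (1.16%). Among the 193 of these genes that were lower at ZT10, 56 were also at least 2-fold lower at ZT22, which is 29% of these and 31.1% of the 180, and 6 were at least 2-fold higher. Among the 78 that were higher at ZT10, 3 were also higher at ZT22, which is 3.85% of these and 3.49% of the 86, and 6 were lower. Both shares of recurring genes, 29% and 3.85%, lie above those of all genes (1.16% and 0.554%). So do the shares with the opposite call, 3.11% of the lower and 7.69% of the higher genes. The count of 56 genes lower at both times became 27 with normexp and 26 without background subtraction. Across all 15537 genes the log2 ratios of the 2 times had a correlation of 0.18 by Pearson and of 0.09 by Spearman, a description over genes, which are not independent replicates.

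Of the 56 genes lower at both times, 14 stand on the fibroblast list. Of the 10 whose smaller change was largest, Mfap5, Ogn, Slc13a4, Col1a1, Col3a1, Mfap4 and the GABA transporter gene Slc6a13 are such genes. Prx of Schwann cells, Moxd1 and Lbp are not, and Lbp came to -0.56 at ZT10 without background subtraction. Of the study's candidates, chosen on these arrays partly for a lower level in ADX+PSL, 4 are among the 56, Mfap4 and Mfap5 included. Moxd1, a monooxygenase-like protein, read 424 in sham+PSL and 89.6 in ADX+PSL at ZT10 and 406 and 65.3 at ZT22. Opn4, the photopigment melanopsin, was chosen after its value was seen, and read 222 and 52.1 at ZT10 and 210 and 56.4 at ZT22. The 3 genes higher at both times were Gm3219, Masp2 and Eno4, the last with 44.8 and 93.1 at ZT10 and 45.5 and 91.4 at ZT22, and with a ratio of 0.50 at ZT10 under an alternative.

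The genes past 2-fold at ZT10 also differed in which array stood apart. Of the 193 lower genes measured on 4 arrays, 37 (19.2%) had the sham+PSL array at ZT10 at least 2-fold above each of the other 3, as Tnnc2, H2-D1 and Sgk1 did. In 33 (17.1%) the ADX+PSL array at ZT10 was at least 2-fold below each of the others, as for Dbp and for Chil3, a chitinase-like protein of macrophages and neutrophils that read 836 and 48.8 at ZT10 and 1096 and 636 at ZT22. A gene with 1 ZT10 array apart was counted there even where it also met the next rule, as Mfap5 did. In a further 41 (21.2%) each sham+PSL array was at least 2-fold above each ADX+PSL array, as for Ogn and Prx, and 82 (42.5%) met none of these. Exosc9, a subunit of the RNA exosome picked after its value was seen, was of the kind with a low ADX+PSL array at ZT10, with 1428 and 333 at ZT10 and 1602 and 1518 at ZT22. Of the 78 higher genes, 19 had the sham+PSL array at ZT10 apart from the rest, 15 the ADX+PSL array at ZT10, and 2 each operation apart from the other. Tnnc2, Sgk1 and Mfap5, named in this paragraph, are among the study's candidates. Those were chosen on these arrays partly for a higher sham+PSL level at ZT10 than at ZT22.

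**Figure D5:**
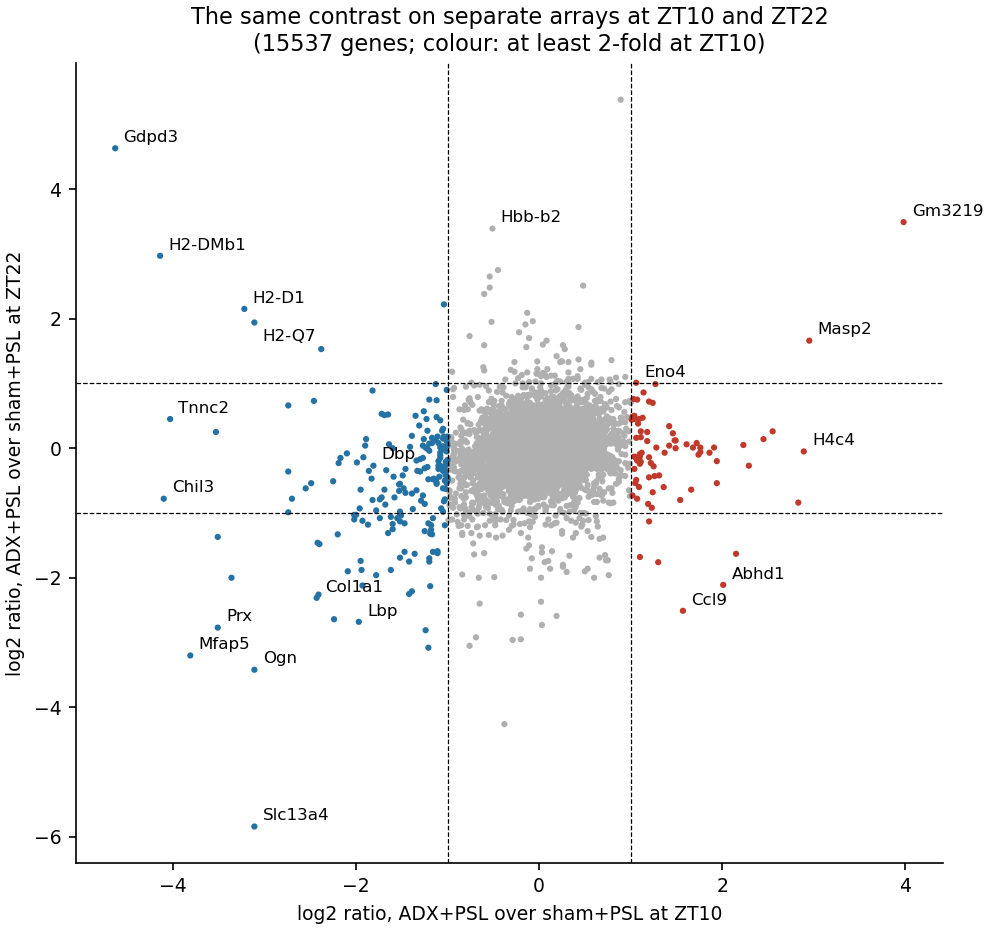
Log2 ratio of ADX+PSL over sham+PSL at ZT22 (vertical axis) against that at ZT10 (horizontal axis) for 15537 genes measured on 4 arrays, with 2-fold as dashed lines. Blue and red points are the genes at least 2-fold lower and higher at ZT10. The lower left holds fibroblast genes such as Ogn and Mfap5, and the upper left Gdpd3 and the H2 genes that turned round.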

How the data were processed

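The authors labelled each RNA with 1 colour, hybridized it to 1 of 4 arrays of a single slide and quantile-normalized the intensities. Their methods speak of normalizing 2 samples, while all 4 columns of the table share nearly the same distribution. Their deposited table of normalized intensities was used as given. Comparison with the scanner signals showed it to be linear (Pearson's r 0.9994 to 0.9999), and every column has a median of 105.5. The scanner software was Feature Extraction 10.7.1.1 by the file headers and 9.5.1.1 by the submitters' notes. Of 39429 probes, 26761 were given a symbol by their accession, 93 by another accession and 4377 by gene name, and 8198 had none. A gene's probe was the brightest of those well above background on both ZT10 arrays, and a gene was called past 2-fold. Probe positions are those of mm9 in the files. Genes named are members of the 30 gene lists, genes the study discusses, the 12 largest rises and falls, and the genes past 2-fold at both times with the largest changes. A few others were picked after their values had been seen. The members and lists were chosen with earlier results of these data known. Alternatives were other normalizations, background treatments, probe rules and limits, and the steps were tried on simulated data first. Tools were numpy 2.4.6 and pandas 2.3.3 under Python 3.11.15, and R 4.3.3 with limma 3.58.1 for the normexp background.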

Additional observations from a re-analysis of the deposited data

Results flagged for a closer look

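Of 12 genes past 2-fold in opposite directions at ZT10 and ZT22, the 10 whose smaller change was largest are given, and the difference between the times was not tested, because there is 1 array per condition. The log2 ratio of ADX+PSL over sham+PSL at ZT10 minus that at ZT22 was -9.26 for Gdpd3, -7.11 for H2-DMb1, -5.37 for H2-D1, -5.05 for H2-Q7 and -3.91 for Gm765, which were lower at ZT10 and higher at ZT22. It was 4.13 for Abhd1, 4.08 for Ccl9, 3.78 for Cyp2j7, 3.07 for Mup9 and 2.32 for Il20rb, which were higher at ZT10 and lower at ZT22. Without background subtraction the ZT10 ratios of Mup9 (0.60) and Il20rb (0.54) came within 2-fold.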

How the results depend on the processing

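No paired analysis was run and no test was made, since each condition has 1 array and the arrays carry no replicate numbers. The ZT10 and ZT22 pairs were not fitted together, though the arrays of each operation were averaged (given below). With 1 array per condition no array could be left out. Of the 81 named genes and the list medians past 2-fold none turned its direction, and genes not named were not followed singly. Some genes within 2-fold turned, such as Mt1 (-0.72) and Cxcl12 (-0.56 in place of 0.63) as means over their probes. The counts depended on the background and on the filters: with normexp 35 genes were higher and 85 lower, all 85 among the 238, and 27 were lower at both times in place of 56. Without background subtraction these were 36, 82 and 26. Asking for well above background on only 1 of the arrays gave 354 and 503, and only genes brighter than the median gave 12 and 25. A limit of 1.5-fold gave 417 and 620, a limit of 3-fold 29 and 85, a limit of 2 spot errors beyond 2-fold 34 and 97, and the mean of the arrays of each operation 26 and 132. Other normalizations kept the counts between 90 and 119 higher and 195 and 232 lower. Of the 81 genes 26 came within 2-fold under at least 1 of 8 alternatives, mostly those of the background. Of 30 list medians 24 moved under none, and 6 moved. Nearest to 0 among the alternatives, the median was -1.85 for the Xlr family, -0.45 for muscle, -0.20 for histocompatibility genes, -0.15 for complement genes, -1.89 for the candidates and -1.32 for fibroblasts. The cause was not tested.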

Other observations

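Crym, a binding protein of thyroid hormone, read 539 in sham+PSL and 135 in ADX+PSL at ZT10 and 415 and 356 at ZT22, so that the ADX+PSL array at ZT10 was the low one. Wnt4, a secreted signalling protein, read 1114 and 289 at ZT10 and 886 and 265 at ZT22, with both ADX+PSL arrays under both sham+PSL arrays. Both were picked after their values had been seen.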
